A study of Mus musculus with 3 samples.

Results

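The MAP kinase cascade genes described here were 9 genes named by symbol and matched in the annotation, with earlier results of these data known. They were the upstream kinases Map3k7 and Map3k8 and the middle kinases Map2k1 and Map2k3. The others were the MAP kinases Mapk3, Mapk8, Mapk9 and Mapk14 and the downstream kinase Mapkapk2. All 9 were found among 55536 gene entries. Polyadenylated RNA was sequenced from primary macrophages that had been derived from bone marrow of C57BL/6J mice, a wild-type inbred strain, and kept for 480 minutes with a stimulus at 100 ng/mL. Its name is not settled, since the descriptions call it lipid A, the lipid part of lipopolysaccharide, and the treatment fields call it lipoprotein A. The 3 libraries were biological replicates 1, 2 and 3 of this 1 group, from separate biosamples that carry 1 shared donor label, with sex and age not collected. No unstimulated cells were among the samples, so all values are levels after stimulation. Nothing in the labels says whether the cultures were grown separately, so spreads between libraries may in part be technical.

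A MAP kinase cascade is a relay of protein kinases. A MAP3K phosphorylates a MAP2K, the MAP2K phosphorylates a MAP kinase on a threonine and a tyrosine of its activation loop, and the MAP kinase then acts on transcription factors and on further kinases such as MK2. In macrophages, Toll-like receptors feed this relay through TAK1 (Map3k7), which serves the JNK and p38 branches, and through TPL2 (Map3k8), which serves the ERK branch. The pathway is switched by phosphorylation, and RNA levels do not measure kinase activity.

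The 4 MAP kinases share the site at which they are switched on. It is shown here as the stretch of coding sequence around it, with the codons of the threonine, the middle residue and the tyrosine in capitals. The sequences are those of GENCODE M21 transcripts, read in the direction of transcription on mm10.
Mapk3, ERK1, chr7:126763434-126763490, plus strand: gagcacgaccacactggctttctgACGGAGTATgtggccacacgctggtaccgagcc
Mapk8, JNK1, chr14:33392979-33393035, minus strand: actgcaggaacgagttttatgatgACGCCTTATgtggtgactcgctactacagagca
Mapk9, JNK2, chr11:49872806-49872862, plus strand: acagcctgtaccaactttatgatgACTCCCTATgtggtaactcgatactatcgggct
Mapk14, p38 alpha, chr17:28728375-28728431, plus strand: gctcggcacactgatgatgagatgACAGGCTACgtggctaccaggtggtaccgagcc
The threonine was codon 203 of Mapk3-202, codon 183 of both Mapk8-203 and Mapk9-201, and codon 180 of Mapk14-202, counted from the start codon as 1. These are names of annotated transcripts. The number does not hold for Mapk14-203, the leading Mapk14 transcript below, which is annotated to start at a later codon. The residue between the threonine and the tyrosine is the one by which the branches differ. Its codon is GAG in Mapk3, CCT in Mapk8, CCC in Mapk9 and GGC in Mapk14, the well-known Thr-Glu-Tyr, Thr-Pro-Tyr and Thr-Gly-Tyr motifs of ERK, JNK and p38.

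In replicates 1, 2 and 3, 26589042, 34344922 and 48356527 expected counts fell on gene entries, where an expected count is a read count that a model may split between genes. All 8 macrophage markers were detected, and of 22 markers of T, B, NK, fibroblast and epithelial cells none was. Detected means at least 1 TPM in 3 of 3 libraries, where TPM is a transcript abundance per length, scaled to the same total in every library. Replicate 2 stood apart by its neutrophil markers, whose summed level was 22.2, 410 and 20.2 TPM in replicates 1, 2 and 3, with 7 of 8 highest in replicate 2. S100a9, a neutrophil calcium-binding protein gene, was at 14.8, 237 and 12.4 TPM. In replicate 2, S100a8 was at 128 TPM and Ngp at 43.3 TPM. The rest of these markers, Mpo, Elane, Retnlg, Ly6g and Cxcr2, were below 1 TPM in every library. They had 28, 6, 1, 2 and 2 expected counts in replicate 2. The part of these markers in the values of replicate 2 below was not tested. In RNA from whole cultures, fewer cells of a type and less RNA per cell cannot be told apart.

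All 9 kinases were detected, where 17.9% of gene entries were. Together they made up 832 TPM on average. Their median level was 43.1 TPM, against 14.0 TPM over the 9930 detected genes, and they ranged from Mapkapk2, above 96.0% of detected genes, to Mapk8, above 23.6%. The most abundant RNA was that of the last step. The downstream kinase Mapkapk2 stood at 406 ± 39.3 TPM (SD, n = 3) and the upstream kinase Map3k7 at 9.33 ± 0.346 TPM (SD, n = 3).

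**Figure D1:**
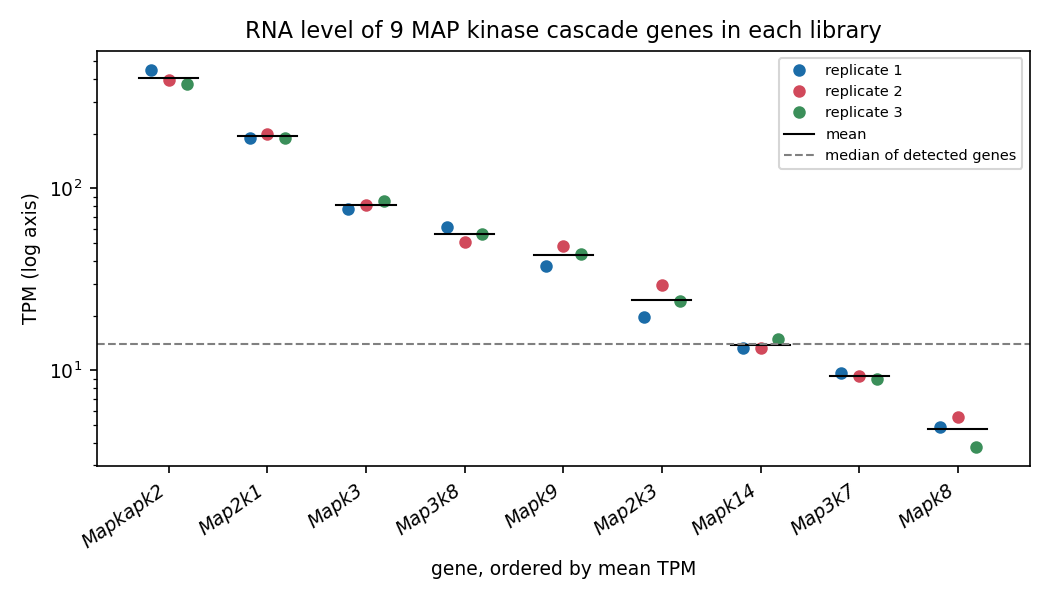
RNA level (TPM, log axis) of the 9 kinase genes, ordered by mean. Each point is a library, the short line is the mean of 3 libraries, and the dashed line is the median of detected genes at 14.0 TPM. Mapkapk2 lies at 375 to 450 TPM and Mapk8 at 3.78 to 5.57 TPM.

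Both upstream kinases were present at clearly different levels. Map3k7 (ENSMUSG00000028284.13, mm10 chr4:31964097-32023467, plus strand) encodes TAK1, the kinase that also activates the IKK complex of the NF-kappaB pathway. Its TPM was 9.69, 9.29 and 9.00 in replicates 1, 2 and 3, from 735, 1030 and 1362 expected counts. The libraries were nearly level, and Map3k7 lay below the median of detected genes in each. Map3k8 (ENSMUSG00000024235.11, mm10 chr18:4331327-4353015, minus strand) encodes TPL2, the MAP3K that phosphorylates MEK1 after Toll-like receptor signals. It was at 61.7, 51.1 and 56.3 TPM, lowest in replicate 2. Map3k7 was below Map3k8 in 3 of 3 libraries, with a difference of -2.58 ± 0.11 on the log2(TPM + 0.1) scale (SD, n = 3). Here and below, a pair of genes is called apart when this difference had the same sign in 3 of 3 libraries and its mean exceeded 2 SD, a rule of size, since 3 paired libraries cannot give an exact permutation p under 0.25.

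Map3k8 was below 1 of the 23 other MAP3K genes listed, Taok3, a MAP3K of the TAO group, at 72.1 TPM. Map3k11, encoding the mixed-lineage kinase MLK3, was at 27.9 TPM. Of the 23 genes, 14 were detected. Map3k19 and Map3k21 had no counts, and 3 counts in a library would have given at most 0.0612 and 0.0318 TPM. These limits cover counting error only. Among the genes that work beside the cascade, Tab2, an adaptor of TAK1 that binds ubiquitin chains, was at 72.8 TPM and Tnip2, encoding ABIN-2, a partner of TPL2, was at 24.9 TPM. Tab2 thus stood above its kinase Map3k7, and Tnip2 below its kinase Map3k8.

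Of the middle kinases, Map2k1 was the more abundant by far. Map2k1 (ENSMUSG00000004936.8, mm10 chr9:64185770-64253631, minus strand) encodes MEK1, which phosphorylates ERK1. Its TPM was 190, 200 and 191, from 7049, 10048 and 13002 expected counts, and no library stood out. Map2k2, which encodes MEK2, the other kinase with this task, was at 60.6, 59.5 and 52.5 TPM. Map2k1 made up 77.1% ± 1.31 of the summed TPM of both MEK genes (SD, n = 3), and its level was 3.36-fold that of Map2k2. Map2k3 (ENSMUSG00000018932.9, mm10 chr11:60932033-60952811, plus strand) encodes MKK3, which phosphorylates p38. It was at 19.6, 29.5 and 23.9 TPM, lowest in replicate 1 and highest in replicate 2. Map2k6, which encodes MKK6, another p38 activator, was nearly absent, with 7, 2 and 1 expected counts against 642, 1296 and 1453 for Map2k3. Map2k3 therefore held 99.5% ± 0.569 of the summed TPM of these 2 genes (SD, n = 3). That share leaves out Map2k4, which also serves p38 and was above Map2k3 in each library, at 41.3 TPM on average.

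Of the MAP2K genes of the remaining branches, Map2k4 lay between Map2k3 and Map2k2 in each library. Map2k7 and Map2k5 lay below Map2k3 in each. Map2k4, encoding MKK4, which serves JNK and p38, was at 31.7, 46.2 and 46.0 TPM. Map2k7, encoding the JNK activator MKK7, was at 13.3, 12.9 and 12.1 TPM. Map2k5, encoding MEK5, which phosphorylates ERK5, was at 10.4 TPM on average. Of the 5 other MAP2K genes, 4 were detected.

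Among the 4 MAP kinases of the set, ERK1 led and JNK1 was lowest. Mapk3 (ENSMUSG00000063065.13, mm10 chr7:126759601-126765819, plus strand), which encodes ERK1, was at 77.3, 80.8 and 85.0 TPM. The libraries were close, with a mean of 81.0 ± 3.83 TPM (SD, n = 3). Mapk6, which encodes the atypical kinase ERK3, was at 90.0 TPM, and Mapk7, which encodes ERK5, at 11.7 TPM.

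The 2 JNK genes of these cells were far from equal. Mapk9 (ENSMUSG00000020366.18, mm10 chr11:49846751-49886421, plus strand) encodes JNK2 and was at 37.3, 48.5 and 43.5 TPM. Mapk8 (ENSMUSG00000021936.14, mm10 chr14:33377898-33447158, minus strand) encodes JNK1 and was at 4.87, 5.57 and 3.78 TPM, from 194, 278 and 287 expected counts. The ranges do not come near each other, and the difference of Mapk8 from Mapk9 was -3.17 ± 0.29 on the log2(TPM + 0.1) scale (SD, n = 3). Mapk10, which encodes JNK3, known from neurons, had no counts, where 3 counts in a library would have given at most 0.0576 TPM. Mapk9 held 90.0% ± 1.80 of the JNK family's TPM (SD, n = 3).

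Mapk14 (ENSMUSG00000053436.15, mm10 chr17:28691329-28748406, plus strand) encodes p38 alpha, the p38 kinase that drives inflammatory gene expression in macrophages. It was at 13.3, 13.3 and 14.9 TPM, close to the median of detected genes. Mapk11, which encodes p38 beta, made up 14.2%, 25.4% and 16.4% of the family's TPM in replicates 1, 2 and 3, with replicate 2 the highest. Mapk14 held 80.3% ± 5.93 (SD, n = 3) and was 2.11 ± 0.53 above Mapk11 on the log2(TPM + 0.1) scale (SD, n = 3). Mapk12, encoding p38 gamma, had 0, 1 and 1 expected counts and Mapk13, encoding p38 delta, had 5, 2 and 1. Of the 10 other MAP kinase genes, 5 were detected. Mapk4 and Mapk15, both for atypical MAP kinases, had no counts either, with limits of 0.0561 and 0.183 TPM for 3 counts. A second quantification deposited for these libraries put Mapk4 above that limit, at 0.098, 0.103 and 0.192 TPM.

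**Figure D2:**
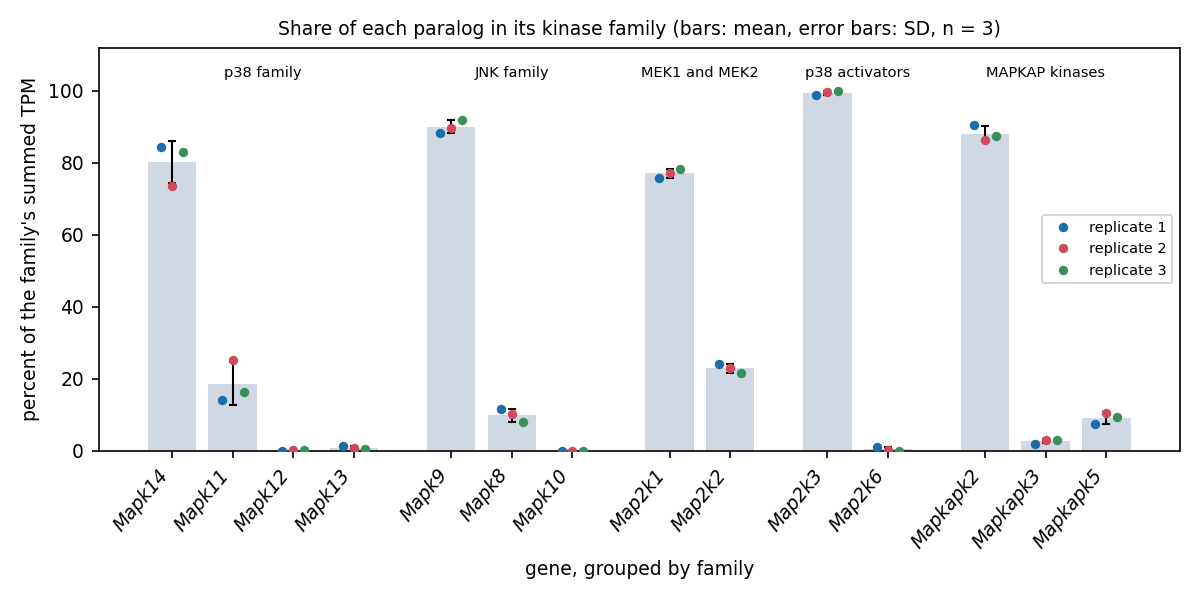
Percent of the summed TPM of each kinase family that falls on each paralog. Bars are means, error bars SD and points the 3 libraries. One gene dominates in each of the 5 families shown, from 77.1% for Map2k1 to 99.5% for Map2k3. The p38 activators shown are Map2k3 and Map2k6, without Map2k4.

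Mapkapk2 (ENSMUSG00000016528.10, mm10 chr1:131053700-131097826, minus strand) was the most abundant of the 68 cascade genes examined, the 9 and 59 others. It encodes MK2, the p38 substrate that stabilises cytokine mRNAs by acting on the RNA-binding protein tristetraprolin. Its TPM was 450, 392 and 375, highest in replicate 1, from 20271, 23769 and 30907 expected counts. Mapkapk3, which encodes the closely related MK3, was at 12.3 TPM on average. Mapkapk2 was 32.9-fold above it, by 5.04 ± 0.34 on the log2(TPM + 0.1) scale (SD, n = 3). With Mapkapk5, which encodes MK5, at 41.7 TPM, Mapkapk2 held 88.2% ± 2.12 of the 3 genes' TPM (SD, n = 3). Mapk14 RNA, for the kinase that phosphorylates MK2, was lower than that of Mapkapk2 in 3 of 3 libraries, at a difference of -4.86 ± 0.21 on the same scale (SD, n = 3). Of the other kinases that MAP kinases activate, Rps6ka3, for the ERK-activated kinase RSK2, was at 66.8 TPM and Mknk1, for MNK1, a kinase of the translation factor eIF4E, at 41.2 TPM. Rps6ka5, for the nuclear kinase MSK1, was at 0.77 TPM. Rps6ka6, for RSK4, had no counts, with a limit of 0.104 TPM for 3 counts. In this tier 8 of 10 were detected. Of the 11 partners and scaffolds 7 were, led by Lamtor3, for the MEK1 partner MP1, at 99.7 TPM. The scaffold gene Ksr2 was at 0.027 TPM and Mapk8ip2, for a JNK scaffold, had no counts, with a limit of 0.0637 TPM. Over all 59 other cascade genes, 38 were detected and 7 had no counts.

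In order of mean level the kinases ran Mapkapk2, Map2k1, Mapk3, Map3k8, Mapk9, Map2k3, Mapk14, Map3k7 and Mapk8. Of the 8 neighbouring pairs, 7 were apart, with differences of 0.53 to 1.26 on the log2(TPM + 0.1) scale. The order came from these same values, so this count describes how steady the differences were and does not test the order. Map3k8 and Mapk9 were not apart, at 0.39 ± 0.33 (SD, n = 3), and differed by 0.07 in replicate 2. In the second quantification deposited for these libraries, 4 neighbouring pairs were apart. There the differences between Mapk3 and Map3k8, 0.37 ± 0.24, between Map2k3 and Mapk14, 0.57 ± 0.28, and between Mapk14 and Map3k7, 0.44 ± 0.43, no longer exceeded 2 SD. All 13 pairs of paralogs or successive tiers were apart by the main values, and 11 by the second quantification, where Map2k3 against Mapk14 was among those no longer apart.

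For each kinase the gene nearest in level and pattern was sought among the 59 other cascade genes, as the Euclidean distance in log2(TPM + 0.1) over the 3 libraries. Mapk9 was nearest to Mapkapk5, at 0.12. Mapk14 was nearest to Taok1, a TAO-group MAP3K, at 0.21, and Map3k8 to Map2k2, at 0.24. Mapk3 lay nearest to Tab2, at 0.28, Map3k7 to Map2k5, at 0.32, Map2k3 to Araf, a RAF-family MAP3K, at 0.42, and Mapk8 to Tab1, the TAK1 activator, at 0.45. Map2k1 and Mapkapk2 had no near neighbour: for both it was Lamtor3, at 1.68 and 3.53.

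How far the 3 libraries differed was asked with a chi-square test per gene on rounded expected counts, scaled with edgeR's TMM factors, which correct for composition. It tests whether libraries differ by more than counting error, and p-values were adjusted over all 12414 genes tested. The test called 70.9% of all genes at an adjusted p under 0.05, and 7 of the 9 kinases, so the members' share is close to the background. Map2k1 did not pass (adjusted p = 0.993), with 275 TMM-scaled CPM, or counts over the scaled library total, in each replicate, nor did Map3k7 (adjusted p = 0.865), with 28.7, 28.2 and 28.8. The other 7 differed between libraries by small ratios. The highest over the lowest library ranged from 1.12 for Mapk3 to 1.41 for Map2k3, where the median over all genes tested was 1.37.

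The individual patterns did not single out 1 library. Mapkapk2 was at 792, 650 and 655 scaled CPM (adjusted p = 5.81e-120), high in replicate 1, and without that replicate it no longer passed (adjusted p = 0.559). Map3k8, at 90.9, 68.9 and 83.4 (adjusted p = 8.03e-22), was low in replicate 2. Map2k3, at 25.1, 35.5 and 30.8 (adjusted p = 1.49e-11), and Mapk9, at 64.9, 79.0 and 74.4 (adjusted p = 3.72e-09), were low in replicate 1 and high in replicate 2. Mapk3 stood at 80.2, 77.5 and 86.5 (adjusted p = 4.41e-05), Mapk14 at 25.6, 25.2 and 28.5 (adjusted p = 0.00997) and Mapk8 at 7.58, 7.61 and 6.08 (adjusted p = 0.0179). In these 3 genes replicate 3 was the one that stood off, above the others for Mapk3 and Mapk14 and below for Mapk8. Without replicate 3 they no longer passed, with adjusted p = 0.824, 0.893 and 0.802 for Mapk3, Mapk14 and Mapk8. Mapk14 also missed the threshold without replicate 2 (adjusted p = 0.0544), with library totals alone (0.0501) and in the second quantification (0.0789). Map2k1 passed with library totals alone (adjusted p = 5.45e-12, ratio 1.10) and in the second quantification (adjusted p = 4.46e-05, ratio 1.06).

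By these scaled counts each replicate was the highest for 3 of the 9 kinases, where 34.7%, 38.3% and 27.0% of detected genes were highest in replicates 1, 2 and 3. Replicate 2 was the lowest for 6 kinases, where 39.6% of detected genes were lowest there. Replicates 1 and 3 were the lowest for 2 kinases and 1 kinase, against 37.3% and 23.1% of detected genes. Some of these were near ties. Map2k1 was at 275 scaled CPM in each replicate, and Mapkapk2 at 650 and 655 in replicates 2 and 3. By TPM, Map2k1 and Mapk3 were lowest in replicate 1, and Map3k7 and Mapkapk2 in replicate 3. Map3k8 and Mapk14 were lowest in replicate 2 by TPM as well. The coefficient of variation of TPM had a median of 9.38% over the kinases and 15.5% over detected genes, and 7 of the 9 kinases were below that value. It ran from 2.99% for Map2k1 to 20.3% for Map2k3, with Mapk8 at 19.0%.

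**Figure D3:**
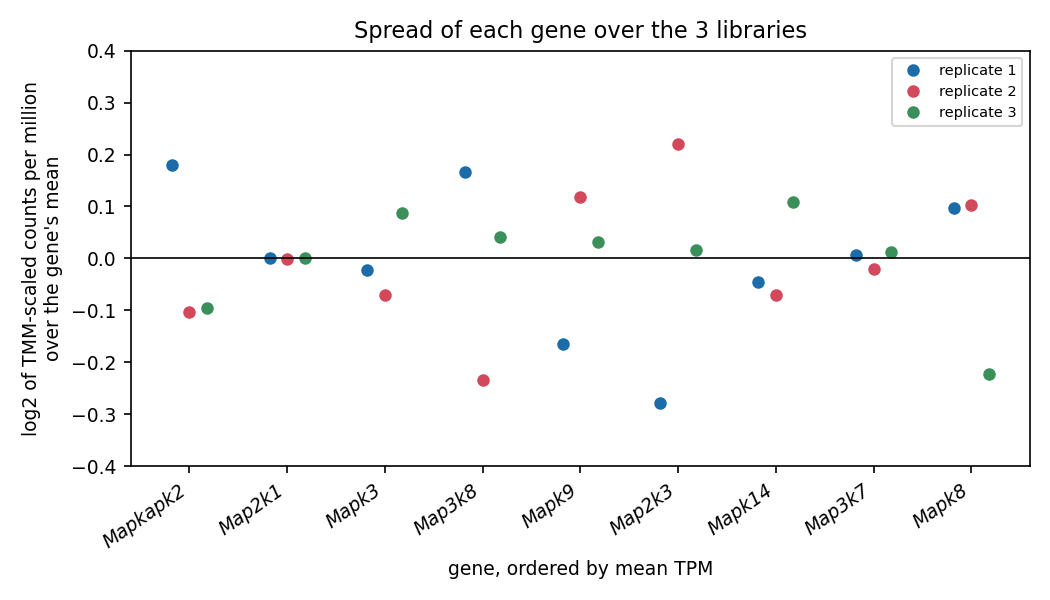
Log2 of each library's TMM-scaled CPM over the gene's mean, for the 9 kinases ordered by mean TPM. Points are libraries. Map2k1 and Map3k7 lie together near 0, Mapkapk2 is high in replicate 1, and Map2k3 spreads most, from 25.1 to 35.5 scaled CPM.

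The transcript tables divided the 9 genes over 65 annotated transcripts, 33 of them protein-coding. The genes differed in how far their TPM was concentrated on 1 of their transcripts. Mapkapk2, Map2k1, Mapk3 and Map2k3 had nearly all of their TPM on 1 coding transcript, at 100%, 98.5%, 97.6% and 97.6%. Map3k8 had 88.4%, 83.7% and 92.3% on its only coding transcript in replicates 1, 2 and 3. In Mapk14, Map3k7, Mapk9 and Mapk8 the leading transcript held 57.0% ± 7.77, 51.5% ± 5.42, 42.3% ± 0.232 and 35.9% ± 2.10 (SD, n = 3). By expected counts, which are not divided by length, Mapk9-204 held 17.1% and Mapk9-201 led at 63.2%, and Mapk8-203 held 16.4% and Mapk8-205 led on average at 38.4%. By TPM the same transcript led in all 3 libraries for 8 of the 9 genes, against 86.0% of detected genes with several transcripts, and in both quantifications for 8 of 9, against 79.9%. The exception was Mapk8, where Mapk8-203 led in replicate 1 and Mapk8-201 in the other libraries. Their means by TPM were level, at 35.9% ± 2.10 for Mapk8-203 and 35.8% ± 5.16 for Mapk8-201 (SD, n = 3). Coding transcripts together made up 82.7% ± 4.29 of Map3k7 by TPM (SD, n = 3). Its noncoding transcript Map3k7-209 was listed at 14.7%, 2.57% and 5.89% from only 13.9, 3 and 9.1 expected counts. In the second quantification the coding share of Map3k7 was 64.2% ± 17.0, and by expected counts it was 98.1% ± 0.744 (SD, n = 3).

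**Figure D4:**
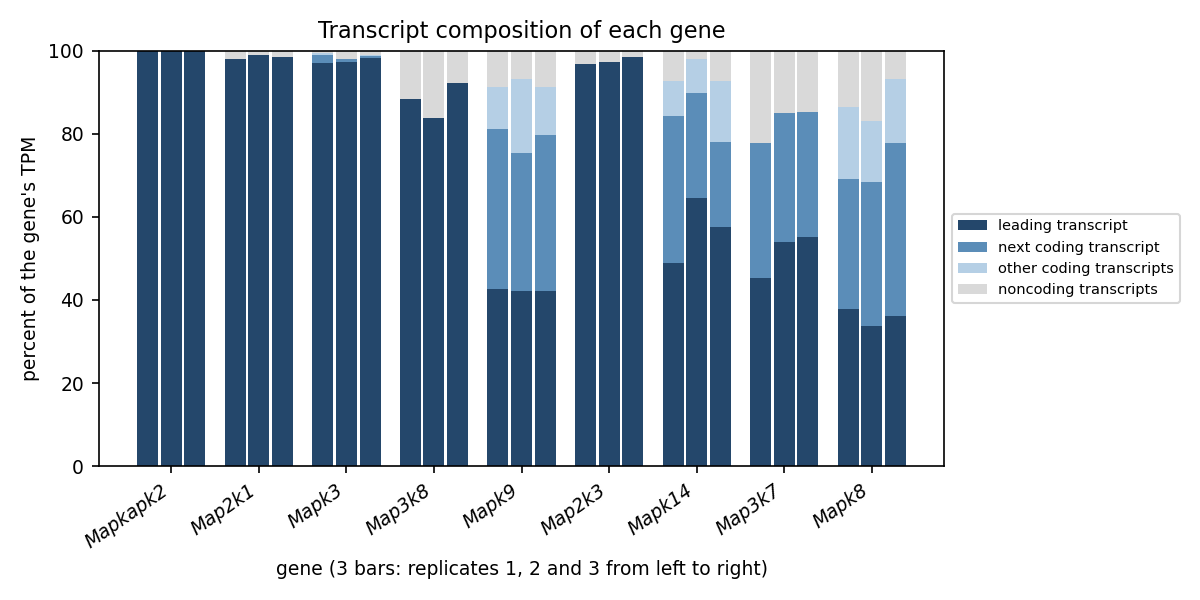
Percent of each gene's TPM on its leading transcript, the next coding transcript, other coding transcripts and noncoding transcripts. The 3 bars of a gene are replicates 1, 2 and 3. Mapkapk2, Map2k1, Mapk3 and Map2k3 are nearly filled by 1 transcript, and Mapk9, Mapk14, Map3k7 and Mapk8 are divided.

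In the 4 divided genes the coding transcripts differ by defined exon choices. These choices were picked after the transcript values had been seen, and short reads assign them only through a model. Mapk8 and Mapk9 each carry a pair of mutually exclusive exons of 72 bases in the part that encodes the kinase domain, known to alter substrate choice. Both exons of each pair are printed with the bases that differ within the pair in capitals, and they are called forms a and b here.
Mapk8 form a, chr14:33390242-33390313, minus strand: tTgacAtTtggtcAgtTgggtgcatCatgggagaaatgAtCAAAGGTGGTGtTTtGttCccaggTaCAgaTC
Mapk8 form b, chr14:33390673-33390744, minus strand: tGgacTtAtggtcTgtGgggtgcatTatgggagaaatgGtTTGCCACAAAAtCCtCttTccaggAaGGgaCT
Mapk9 form a, chr11:49874264-49874335, plus strand: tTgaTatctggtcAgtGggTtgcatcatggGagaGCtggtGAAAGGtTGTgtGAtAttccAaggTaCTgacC
Mapk9 form b, chr11:49873836-49873907, plus strand: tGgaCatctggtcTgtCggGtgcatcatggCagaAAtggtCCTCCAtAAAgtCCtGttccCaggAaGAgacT
Within a gene, 27 of 72 bases differ between the Mapk8 exons and 25 of 72 between the Mapk9 exons. Across the genes, form a of Mapk8 is 79.2% identical to form a of Mapk9, and form b 81.9% identical to form b, so each exon is closer to its counterpart in the other gene than to its alternative in its own.

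In both genes form a prevailed by TPM. It made up 80.0%, 82.3% and 83.5% of Mapk8 coding transcripts and 95.1%, 90.5% and 93.7% of those of Mapk9 in replicates 1, 2 and 3. The means were 81.9% ± 1.76 and 93.1% ± 2.34 (SD, n = 3), and the ranges of the genes did not overlap. In the second quantification, with means of 86.9% and 89.7%, Mapk8 ran from 84.7% to 88.1% and Mapk9 from 87.2% to 91.7%, so the ranges overlapped. For Mapk8 the share rests on few reads, with 95.2, 150 and 161 expected counts for form a and 80.4, 106 and 102 for form b. It was 58.0% ± 3.52 (SD, n = 3) when expected counts were used without division by length. The annotated form b transcript Mapk8-205 is 5756 bases long, against 1310 bases for Mapk8-203. For Mapk9 the count share was 96.5%.

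JNK1 and JNK2 also exist as long and short proteins that end differently, through 2 versions of the last coding exon. The long end of Mapk8, with 143 coding bases in that exon, made up 36.3%, 41.8% and 44.6% of coding transcripts, lowest in replicate 1. The long end of Mapk9, with 140 coding bases, made up 47.1%, 44.8% and 47.5%. By counts the Mapk8 share was 40.0%, nearly the same as its mean by TPM of 40.9%. The Mapk9 share was 69.5% by counts against 46.5% by TPM, so that the major form differed between the measures, where the long-end transcript Mapk9-201 is annotated with 4675 bases and the short-end transcript Mapk9-204 with 1302.

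Mapk14 carries a pair of mutually exclusive exons of 80 bases in its coding sequence.
Mapk14 form a, chr17:28737011-28737090, plus strand: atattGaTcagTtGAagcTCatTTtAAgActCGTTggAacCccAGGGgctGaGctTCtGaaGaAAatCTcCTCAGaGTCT
Mapk14 form b, chr17:28740680-28740759, plus strand: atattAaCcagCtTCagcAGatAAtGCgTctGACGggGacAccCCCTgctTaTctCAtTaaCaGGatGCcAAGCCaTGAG
Capitals again mark the 41 of 80 bases at which they differ, so this pair is the less alike, at 48.8% identity. Form a made up 92.6%, 91.7% and 85.4% of the transcripts with either exon, lowest in replicate 3, with a mean of 89.9% ± 3.92 (SD, n = 3). The other measures gave 87.7% and 89.0%, and form a was the major one in every library by each.

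Mapk14 transcripts also differ in their start. The leading transcript, Mapk14-203, has 849 coding bases, lacks the first coding exon of the full-length transcripts with 1080, and is annotated to start at a later codon. It held 48.9%, 64.4% and 57.5% of the gene's TPM, and in the second quantification 40.9% on average. Transcripts with the usual first coding exon of 116 bases made up 47.2%, 34.2% and 36.6% of coding TPM, a mean of 39.3% ± 6.90 (SD, n = 3), and 48.7% ± 7.84 in the second quantification. Replicate 1 was the highest in both, and which form is in the majority in that library differed between them.

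Map3k7 has a cassette exon of 81 bases, a length that keeps the reading frame.
Map3k7 cassette exon, chr4:31994874-31994954, plus strand: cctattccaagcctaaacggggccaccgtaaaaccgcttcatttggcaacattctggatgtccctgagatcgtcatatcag
It was included in 58.3%, 63.4% and 64.8% of Map3k7 coding transcripts, lowest in replicate 1, with a mean of 62.2% ± 3.42 (SD, n = 3). Counts gave 62.6% and the second quantification 73.3% ± 2.33 (SD, n = 3). TAK1 RNA with and without the exon was thus present in every library by each measure, with the included form the major one.

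**Figure D5:**
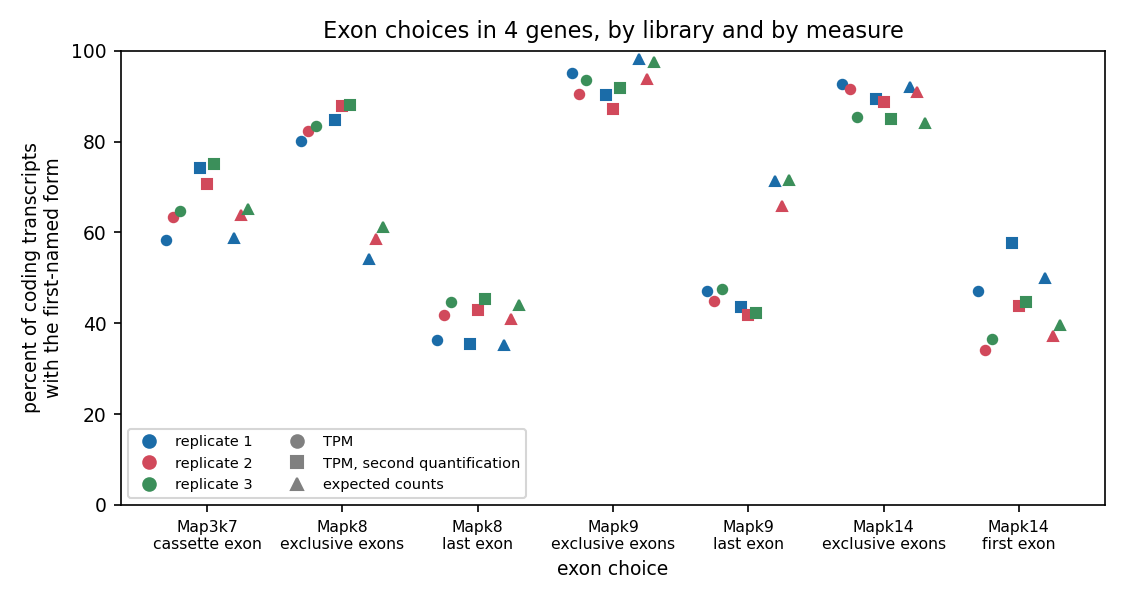
Percent of coding transcripts with the first-named form for 7 exon choices in Map3k7, Mapk8, Mapk9 and Mapk14: inclusion, form a, the long last exon or the usual first coding exon. Colours are libraries, circles TPM, squares TPM of the second quantification and triangles expected counts. Form a prevails for all 3 exclusive pairs, and the measures part most for Mapk8 form a, 81.9% against 58.0%, and the Mapk9 last exon, 46.5% against 69.5%.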

How the data were processed

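Polyadenylated RNA of 3 libraries was measured. Per the labels, 1 µg of RNA was used. Per the deposited readme, reads were quantified on mm10 with GENCODE M21; programs and strand settings were not given in the sources used here. The deposited gene and transcript tables hold, per the file headers, expected counts, TPM, FPKM and each transcript's percent of the TPM of its gene. A second deposited transcript table gives estimated counts and TPM, which were summed per gene. Entries without a gene identifier (0.127%, 0.0798% and 0.0682% of counts in replicates 1, 2 and 3) were left out.

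Expected counts were rounded, and genes with a mean of at least 10 were tested by chi-square (2 degrees of freedom) after TMM scaling, Benjamini-Hochberg adjusted at 0.05. The code was tested on simulated data. All 27 counts of the 9 genes were whole numbers, and no exon of another annotated gene overlapped theirs. Log2 values used a pseudocount of 0.1. Software was R 4.3.3, edgeR 4.0.16, DESeq2 1.42.0, Biopython 1.88, matplotlib 3.10.9, pandas 2.3.3, numpy 2.4.6 and Python 3.11.15.

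The genes, lists and tests were chosen with earlier results of these data known. Named are the 9 genes, the 3 highest and 2 lowest of each other tier with ties, both genes of 13 pairs and each nearest gene; some genes that meet this rule are not reported here. Alternatives were other scalings, count and TPM minimums, pseudocounts, the second quantification and leaving out each replicate.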

Additional observations from a re-analysis of the deposited data

How the results depend on the processing

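No paired analysis was possible because the 3 libraries form 1 group. No tested or signed difference changed direction under an alternative, but the major form by mean of 1 exon choice did, as did that of the Mapk14 start in replicate 1: the long end of Mapk9 was at 46.5% by TPM and 69.5% by expected counts. With the second quantification, neighbouring pairs apart fell from 7 to 4, the median leading-transcript share was 81.9% in place of 88.1%, and the median coding share 91.3% in place of 94.3%; by expected counts the leading share was 94.0% and the coding share 99.5%. The cause was not tested. Leaving out each replicate gave 5299 (without replicate 2) to 7459 varying genes, against 8799, and 4 (without replicate 3) to 6 varying kinases, against 7, with fewer libraries in each test. The same omissions gave a median level of 40.4 to 46.0 TPM, 7 to 8 neighbouring pairs apart, 13 of 13 pairs apart, a leading share of 86.1% to 90.4% and a coding share of 92.9% to 95.2%. Of the values for single genes, pairs and exon choices, 298 stayed within 1 SD or on their side of the threshold, 43 moved further, 3 came to pass and 12 no longer passed; the alternatives for exon choices and the coding share by counts were added after seeing the data. Detection of all 9 kinases held at 0.5 TPM, and at 5 TPM 8 passed. Over detected genes the second quantification shifted levels by a median of -0.22 (log2), and leaving out mitochondrial genes and the ribosomal RNA gene CT010467.1 by 0.12. Mapk8 has the fewest counts of the 9 genes.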

Other observations

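Of the JNK activators outside the 9 genes, Map2k4, for MKK4, was the higher beside Map2k7, for MKK7, and the difference was 1.67 ± 0.37 on the log2(TPM + 0.1) scale (SD, n = 3), in 3 of 3 libraries.

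The deposited TPM lay above the upper bound of the credibility interval deposited beside it in 7 of the 27 values of the 9 kinases, and below the lower bound in 0. These were all 3 values of Mapkapk2 and of Map2k1 and the replicate 1 value of Map3k8. For Mapkapk2 in replicate 1 the TPM was 450 and the interval 414 to 426. Over all detected genes, 13.2% of values lay above and 4.14% below their interval. Mapk10 and Rps6ka6 had no counts, yet their whole intervals lay above the limits given for 3 counts. The lower bounds in replicates 1, 2 and 3 were 0.412, 0.350 and 0.263 TPM for Mapk10. They were 0.469, 0.404 and 0.273 TPM for Rps6ka6. The intervals were therefore not used as errors here.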
